A study of Mus musculus with 4 samples.

Results

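The genes described here are 33 genes of the unfolded protein response and of protein folding in the endoplasmic reticulum (ER), measured in mouse colon epithelium during chemically induced colitis. They were chosen by name: the stress sensors, the transcription factors below them, ER chaperones, disulfide isomerases and the machinery that removes misfolded proteins. All 33 of the 18193 genes with a probe set naming a single gene were found, on 76 probe sets, and each was read from its brightest probe set over the arrays. The samples were colon epithelium of 4 mice, 1 array each. All mice carried Stat3 alleles flanked by loxP sites (Stat3flfl) and had drunk 2.5% dextran sodium sulphate (DSS), which injures the colon lining, for 5 days. In 2 mice (Cre-negative) no Cre recombinase was present. In the other 2 (Cre-positive) Cre under the villin promoter, active in intestinal epithelial cells, was present. No array without DSS was analysed here, and the labels give neither age nor sex nor strain.

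The unfolded protein response is set off when unfolded proteins build up in the ER lumen. Its sensors are IRE1 (Ern1, and Ern2 for the form found in gut and airway epithelium), PERK (Eif2ak3) and ATF6. IRE1 splices the Xbp1 transcript, PERK slows translation and raises ATF4 protein, and ATF6 is cut to release a transcription factor, so much of the signalling is not seen in transcript levels. What the arrays can show are the transcripts of sensors, factors and target genes. Goblet cells of the colon, which fold and secrete large amounts of mucin, depend on this machinery. The comparison here asked whether these transcripts differed between injured epithelium with and without Cre in the presence of floxed Stat3.

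Values are GC-RMA intensities on the log2 scale, differences are given for Cre-positive relative to Cre-negative, and an adjusted p is limma's, corrected for the 12659 genes in the fit and read against 0.05. Stat3, by its brightest probe set, measured log2 10.46 and 10.50 in the Cre-negative arrays and 9.28 and 8.16 in the Cre-positive arrays, a difference of -1.75 (SE 0.43, limma adjusted p = 0.332). The next brightest measured 9.72 and 10.05 against 8.37 and 8.24, a difference of -1.57 in the same direction. A dimmer one differed by 1.29 in the opposite direction, another was at floor level, and the labels do not say which of them lie in the floxed part. All 13 epithelial markers listed were above floor level, among them Epcam at log2 14.67 to 14.94. Of these 13, 12 averaged higher in Cre-positive mice, with a median difference of 0.17, and their part in the results below was not tested. Cre-positive array 1 correlated least with the others (0.981 to 0.987). The summed intensity of 7 neutrophil markers was 1568 in that array, against 87.1 in Cre-positive array 2 and 133 and 81.0 in the Cre-negative arrays. S100a8 and S100a9 were the markers that differed. Csf3r was dim and even (log2 3.38 to 3.49), and Cxcr2, Mpo, Ngp and Camp were at floor level, meaning no brighter than the dimmest 40% of probe sets on each array. In RNA from a tissue, fewer cells of a type and less RNA per cell cannot be told apart.

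Promoter sequences were available for 28 of the 33 genes (RefSeq, build GRCm38.p6, 250 bases before to 50 after each annotated start). The ER stress element, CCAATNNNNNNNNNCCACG, is the site through which ATF6 with NF-Y acts on ER chaperone genes. It was found on either strand in 9 of these 28 genes (32.1%) and in 37 of all 27025 genes with a promoter in the table (0.137%). These 9 were Hspa5, Hsp90b1, Dnajc3, Calr, Canx, Pdia6, Creld2, Syvn1 and Derl3. Its second part, CCACG, was found in 22 of 28 (78.6%), against 35.5% of all genes. With up to 1 mismatch in its 10 fixed letters it was found in 15 of 28 (53.6%), against 1.72% of all genes. The amino acid response element TTGCATCA, a site of the ATF4 type, was found in Atf3, Chac1 and Herpud1 (10.7%, against 1.03% of all genes), and TGACGTGG, an XBP1 and ATF6 site, in 0 of 28 (0.714% of all genes). A match of letters is a description and does not show that a factor binds there. The genes were chosen by name as part of this response, so their contrast with all genes is no test. The 250 bases before the start, 5′ to 3′ on the gene's strand, are given for Hspa5, Creld2 and Atf3, among the genes that spread most between mice of the same group, and for Syvn1 and Pdia4, the highest and lowest genotype differences among genes with an entry. Capitals mark the fixed letters of an ER stress element (in Pdia4 with 1 mismatch) or the amino acid response element of Atf3.
Hspa5 promoter, chr2:34771840-34772089, plus strand: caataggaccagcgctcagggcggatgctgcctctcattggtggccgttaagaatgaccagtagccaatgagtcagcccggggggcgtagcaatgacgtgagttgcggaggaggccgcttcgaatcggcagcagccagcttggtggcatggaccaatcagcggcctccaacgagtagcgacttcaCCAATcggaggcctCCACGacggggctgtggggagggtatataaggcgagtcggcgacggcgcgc
Creld2 promoter, chr15:88819396-88819645, plus strand: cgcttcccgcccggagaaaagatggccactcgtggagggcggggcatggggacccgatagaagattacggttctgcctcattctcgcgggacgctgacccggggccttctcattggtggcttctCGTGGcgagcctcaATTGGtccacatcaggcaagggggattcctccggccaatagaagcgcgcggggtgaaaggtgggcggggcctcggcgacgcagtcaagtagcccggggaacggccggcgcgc
Atf3 promoter, chr1:191183334-191183583, minus strand: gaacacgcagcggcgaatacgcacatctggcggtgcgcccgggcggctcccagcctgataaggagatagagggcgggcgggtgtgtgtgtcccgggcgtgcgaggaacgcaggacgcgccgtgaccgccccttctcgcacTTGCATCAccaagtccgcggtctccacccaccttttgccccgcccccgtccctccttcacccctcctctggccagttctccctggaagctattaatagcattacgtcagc
Syvn1 promoter, chr19:6046326-6046575, plus strand: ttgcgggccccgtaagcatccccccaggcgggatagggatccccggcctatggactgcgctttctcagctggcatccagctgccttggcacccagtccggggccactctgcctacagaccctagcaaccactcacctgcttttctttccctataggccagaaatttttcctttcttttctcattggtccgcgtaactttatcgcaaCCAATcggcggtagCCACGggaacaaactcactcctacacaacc
Pdia4 promoter, chr6:47813513-47813762, minus strand: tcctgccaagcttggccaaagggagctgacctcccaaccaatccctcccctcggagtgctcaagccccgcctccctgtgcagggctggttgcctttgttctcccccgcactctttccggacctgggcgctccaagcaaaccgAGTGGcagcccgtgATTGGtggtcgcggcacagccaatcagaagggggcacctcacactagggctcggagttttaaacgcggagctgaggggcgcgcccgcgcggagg
In Hspa5 the element begins 65 bases before the start and in Syvn1 44 bases before it, both on the gene's strand. In Creld2 and Pdia4 it lies on the other strand, beginning 126 and 108 bases before the start.

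Read from the brightest probe sets, the measured differences of the tested genes between the genotypes all stayed below 0.5 on the log2 scale. Their confidence intervals were narrow for some genes, such as P4hb (-0.28 to 0.22). They were wide for others, such as Hspa5 (-0.95 to 0.92), Ddit3 (-0.98 to 1.04) and Atf3 (-3.08 to 3.44), where larger differences either way were not excluded. Of the 33 genes 32 lay above the filter on dim genes (log2 2.81) and were tested. Derl3, a derlin, was at floor level on every array (log2 2.54 to 2.57). Of the 32, 17 averaged higher and 15 lower in Cre-positive mice. With each array centred on its median, or after quantile normalization, 21 averaged higher. Leaving out 1 array gave 12 to 24 higher. Counted over all 69 probe sets of these genes above the filter, 28 were higher, so the count depends on the probe sets chosen. The differences had a median of 0.03 and ranged from -0.40 (Pdia4) to 0.43 (Ern2). Over all genes tested 38.5% had a higher mean, and the median difference was -0.05. Limma called 0 of 32 after adjustment, where 0% of all genes were called. By the brightest probe sets, 2 genes were higher at an unadjusted p under 0.05, Ern2 and Syvn1, and 0 lower. Of all genes 2.54% were higher and 8.51% lower at that threshold. Leaving out either Cre-negative array brought these 2 to 0, and the p-values of the authors' deposited table put Ern2 alone under 0.05 (0.0211). The groups did not overlap in 4 higher genes (Ern2, Eif2ak3, Sel1l and Syvn1; 13.5% of all genes) and in 4 lower ones (Sdf2l1, Pdia3, Pdia4 and Manf; 34.7% of all genes). In the other 24 they overlapped, and 48.3% of all genes did not overlap in 1 direction or the other. By the brightest probe sets no difference reached 0.5 on the log2 scale, a size passed by 1210 of the 12659 genes tested. Dimmer probe sets of Hyou1 (-1.35), Atf6 (-0.83), Ern1 (-0.64), Sel1l (-0.56) and Hsp90b1 (-0.50) passed it, and no probe set was higher by that much. With 2 mice in each group, an exact permutation test of a single gene cannot go below a two-sided p of 0.333.

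**Figure D1:**
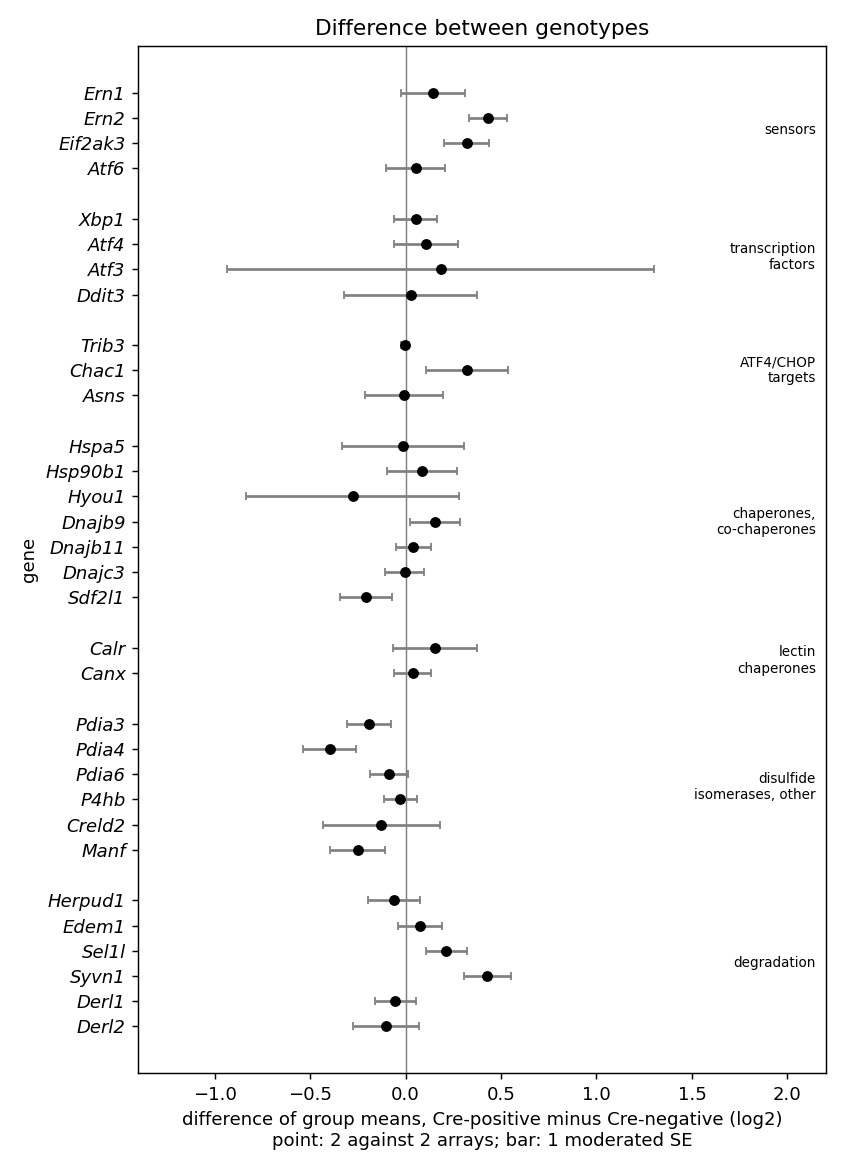
Difference of group means (log2, Cre-positive minus Cre-negative) for the 32 tested genes, grouped by role, with bars of 1 moderated SE from limma (n = 2 arrays per group). Ern2 and Syvn1 stand highest at 0.43, Pdia4 lowest at -0.40, and Atf3 has the widest bar (SE 1.12).

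Among the sensors all 4 averaged higher in Cre-positive mice (median difference 0.23), and 2 had groups that did not overlap, where 13.5% of all genes were higher without overlap. Ern2, which encodes IRE1 beta and is known from goblet cells, measured log2 9.72 and 9.84 in the Cre-negative arrays and 10.19 and 10.24 in the Cre-positive arrays. Both Cre-positive arrays thus lay above both Cre-negative ones, 1.35-fold on average (difference 0.43, SE 0.10, 95% interval 0.14 to 0.72), without passing the threshold (limma adjusted p = 0.316). That interval is not corrected for the number of genes, and Ern2 had no second probe set to set beside it. Goblet cell markers had a higher mean in 9 of 13 genes, with summed intensities of 260097 and 272446 in the Cre-positive arrays and 238506 and 256567 in the Cre-negative arrays. Muc2, the main gel-forming mucin, differed by 0.42 and Fcgbp by 0.56, whereas Atoh1, the transcription factor of the secretory lineage, differed by -0.47 with overlapping groups. The part of goblet cell content in the Ern2 values was not tested.

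Eif2ak3, the gene of PERK, measured log2 9.40 and 9.58 in the Cre-negative arrays and 9.78 and 9.84 in the Cre-positive arrays. Its difference of 0.32 (SE 0.12, limma adjusted p = 0.468) had an interval from -0.02 to 0.66. Ern1, the gene of the widely expressed IRE1 alpha, measured 8.90 and 8.78 against 9.15 and 8.82, with overlapping groups and a difference of 0.14. Atf6 measured 8.24 and 8.28 against 8.18 and 8.44, so its Cre-positive arrays lay on either side of the Cre-negative ones (0.05). For Ern1 and Atf6 other probe sets disagreed, and with the mean of all probe sets per gene both turned lower (-0.014 and -0.40) and the sensor median came to 0.026. Dimmer Ern1 probe sets differed by -0.64 and 0.48, and those of Atf6 by -0.42 and -0.83. The last of these had an unadjusted limma p of 0.045 in a fit of all probe sets above the filter.

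The transcription factors showed overlapping groups in 4 of 4 genes, where 48.3% of all genes did not overlap. Their median difference was 0.08. It was -0.22 without Cre-negative array 2, -0.094 without Cre-positive array 1 and 0.36 without Cre-negative array 1. Xbp1, whose spliced form encodes the factor activated by IRE1, measured log2 12.67 and 12.72 in the Cre-negative and 12.85 and 12.65 in the Cre-positive arrays. The difference was 0.05, with an interval from -0.27 to 0.38, and these values do not tell the spliced from the unspliced transcript. Atf4, the factor raised by PERK, measured 11.19 and 10.84 against 11.21 and 11.02 (difference 0.11, interval -0.39 to 0.60). Ddit3, which encodes CHOP, a factor linked to cell death under lasting stress, measured 8.67 and 7.86 against 8.46 and 8.12 (difference 0.03, interval -0.98 to 1.04). Atf3, an early stress-induced factor, spread most. It measured 12.77 and 10.24 in the Cre-negative and 12.49 and 10.89 in the Cre-positive arrays, so that 1 array of each group was high and 1 low. Its genotype difference of 0.18 had an SE of 1.12 (limma adjusted p = 0.955), and its interval from -3.08 to 3.44 covers large changes either way.

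The targets of ATF4 and CHOP gave no common direction. Chac1, an enzyme that breaks down glutathione, measured log2 5.28 and 5.66 in the Cre-negative and 5.94 and 5.64 in the Cre-positive arrays, overlapping by a narrow margin (difference 0.32, SE 0.21, limma adjusted p = 0.582). Asns, which makes asparagine, measured 10.57 and 10.28 against 10.62 and 10.21, a difference of -0.01. Trib3, a pseudokinase that dampens ATF4 signalling, was at or just above floor level throughout (2.80 to 2.82), where a difference has no readable size.

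Among the chaperones of the HSP70 and HSP90 type and their partners, 3 of 7 had a higher mean and the median was -0.005. Hspa5, the gene of BiP, the main ER HSP70 and the usual marker of this response, measured log2 14.26 and 13.75 in the Cre-negative and 14.31 and 13.66 in the Cre-positive arrays. The group means differed by -0.01, with an interval from -0.95 to 0.92, while the mice of each group differed from each other by 0.51 and 0.65. The sign of so small a value turned with the scaling, to 0.0074 with arrays centred on their medians and to 0.045 after quantile normalization. Hsp90b1, the gene of the HSP90 of the ER, measured 13.63 and 13.38 against 13.77 and 13.41.

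Hyou1, an HSP70-like exchange factor of BiP, measured log2 9.35 and 8.82 in the Cre-negative and 9.49 and 8.12 in the Cre-positive arrays (difference -0.28, SE 0.56). The Cre-positive arrays held both the highest and the lowest of its values. The J-domain partners of BiP had small differences of group means, Dnajb9 of 0.15, Dnajb11 of 0.04 and Dnajc3 of -0.005. Sdf2l1, which works with Dnajb11, was the only gene of this group whose arrays separated by genotype, where 34.7% of all genes were lower without overlap. It measured 10.08 and 9.81 in the Cre-negative against 9.77 and 9.70 in the Cre-positive arrays (difference -0.21, SE 0.14, limma adjusted p = 0.578). Calr and Canx, the genes of calreticulin and calnexin, which hold glycoproteins for folding, differed by 0.16 and 0.04 with overlapping groups. Calr measured 13.98 and 13.75 against 14.26 and 13.78, and Canx 13.27 and 13.13 against 13.22 and 13.26.

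All 6 genes of the disulfide isomerase group, counting Creld2 and Manf, averaged lower in Cre-positive mice (median difference -0.16), as did 61.5% of all genes. Leaving out Cre-negative array 2 gave -0.27, and leaving out Cre-negative array 1 gave -0.069. Pdia4, which forms and rearranges disulfide bonds, stood lowest of all 32 genes. It measured log2 10.19 and 10.01 in the Cre-negative and 9.82 and 9.60 in the Cre-positive arrays, 1.32-fold lower on average (difference -0.40, SE 0.14, interval -0.80 to 0.01, limma adjusted p = 0.457). Manf, a small stress-induced protein that binds BiP, measured 13.01 and 12.69 against 12.57 and 12.63 (-0.25, limma adjusted p = 0.554). Pdia3, the isomerase that works with calreticulin and calnexin, measured 13.78 and 13.89 against 13.56 and 13.73 (-0.19, limma adjusted p = 0.559). In these 3 genes both Cre-positive arrays lay below both Cre-negative ones, as in 34.7% of all genes. In Pdia6 (-0.09), P4hb (-0.03) and Creld2 (-0.13) the groups overlapped.

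Of the genes of ER-associated degradation, 3 of the 6 tested had a higher mean, with a median of 0.01. Syvn1 and Sel1l, which encode the ubiquitin ligase HRD1 and its membrane partner, were the 2 whose groups did not overlap, both higher, where 13.5% of all genes were. Syvn1 measured log2 9.84 and 9.70 in the Cre-negative and 10.29 and 10.10 in the Cre-positive arrays, 1.35-fold higher on average (difference 0.43, SE 0.12, interval 0.06 to 0.79, limma adjusted p = 0.402). Its other probe set differed by 0.34, in the same direction. Sel1l measured 9.17 and 9.16 against 9.43 and 9.32 (difference 0.21, SE 0.11, limma adjusted p = 0.532), but all 4 of its other probe sets went the other way, by -0.03 to -0.56. Edem1, which hands misfolded glycoproteins on for degradation, differed by 0.07, Herpud1, a ligase adaptor, by -0.06, and the derlin genes Derl1 and Derl2 by -0.05 and -0.10, all with overlapping groups.

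**Figure D2:**
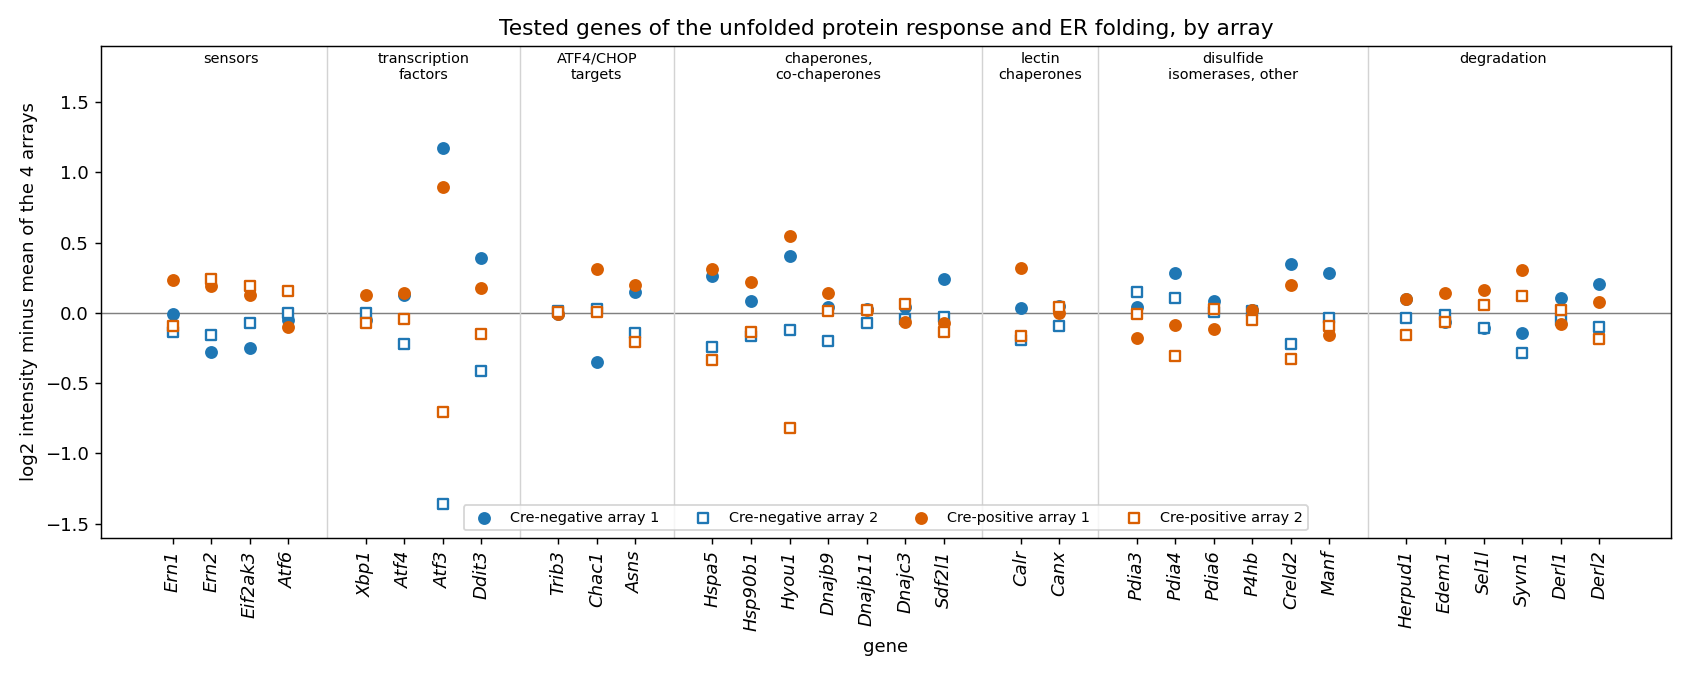
Log2 intensity of each tested gene in each array, minus that gene's mean over the 4 arrays, grouped by role. Filled circles are the arrays numbered 1 and open squares those numbered 2. In Atf3, Hyou1, Hspa5, Ddit3 and Creld2 the filled points of both genotypes lie above the open ones.

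In 14 of the 32 genes the gaps between the mice of each group both exceeded the difference between the genotypes, as they did in 27.2% of all genes tested. They were Atf3, Atf4, Ddit3, Trib3, Asns, Hspa5, Hsp90b1, Hyou1, Dnajc3, Calr, Creld2, Herpud1, Derl1 and Derl2. In the other 18, which include the stress-induced genes Pdia4, Manf, Sdf2l1 and Dnajb9, at least 1 gap was smaller than that difference. In 15 of the 32 genes the arrays numbered 1 in the sample titles, of either genotype, both lay above the arrays numbered 2, and in 2 genes (Atf6 and Trib3) both lay below. Of all genes tested 17% had the first pattern and 16.3% the second. The labels do not say that equal numbers mark mice handled together, and the split was noticed in these data and not tested.

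Atf3 was 5.76-fold higher in the first Cre-negative array than in the second, and 3.02-fold higher in the first Cre-positive array than in the second. For Hyou1 the same folds were 1.44 and 2.58, for Hspa5 1.43 and 1.57, for Ddit3 1.75 and 1.26, and for Creld2 1.49 and 1.45. These 5 were the genes in which the mean of the arrays numbered 1 exceeded that of the arrays numbered 2 by more than 0.5 on the log2 scale. All 3 Hspa5 probe sets had the pattern, as had 2 of 3 for Hyou1, while the dimmest Hyou1 probe set differed by -1.35 between the genotypes, with Cre-positive array 2 low at log2 4.24. Of the 158 related genes described below, 34 had the arrays numbered 1 higher and 38 those numbered 2.

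Some other measures moved with these arrays. S100a8, a neutrophil marker, measured log2 5.91 and 4.80 in the Cre-negative arrays 1 and 2 and 9.70 and 5.06 in the Cre-positive arrays 1 and 2. S100a9 had the same order of arrays, whereas Csf3r was dim and even (3.38 to 3.49). The neutrophil markers Cxcr2, Mpo, Ngp and Camp were at floor level. The ratio of 3-prime to 5-prime signal of the Gapdh control probe sets, a measure of RNA integrity, was 0.886 and 0.782 in the Cre-negative and 0.992 and 0.847 in the Cre-positive arrays, higher in the arrays numbered 1. The Actb ratio (1.36 and 1.27, 1.32 and 1.42) did not follow the numbers. Their part in the levels of these genes was not tested.

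**Figure D3:**
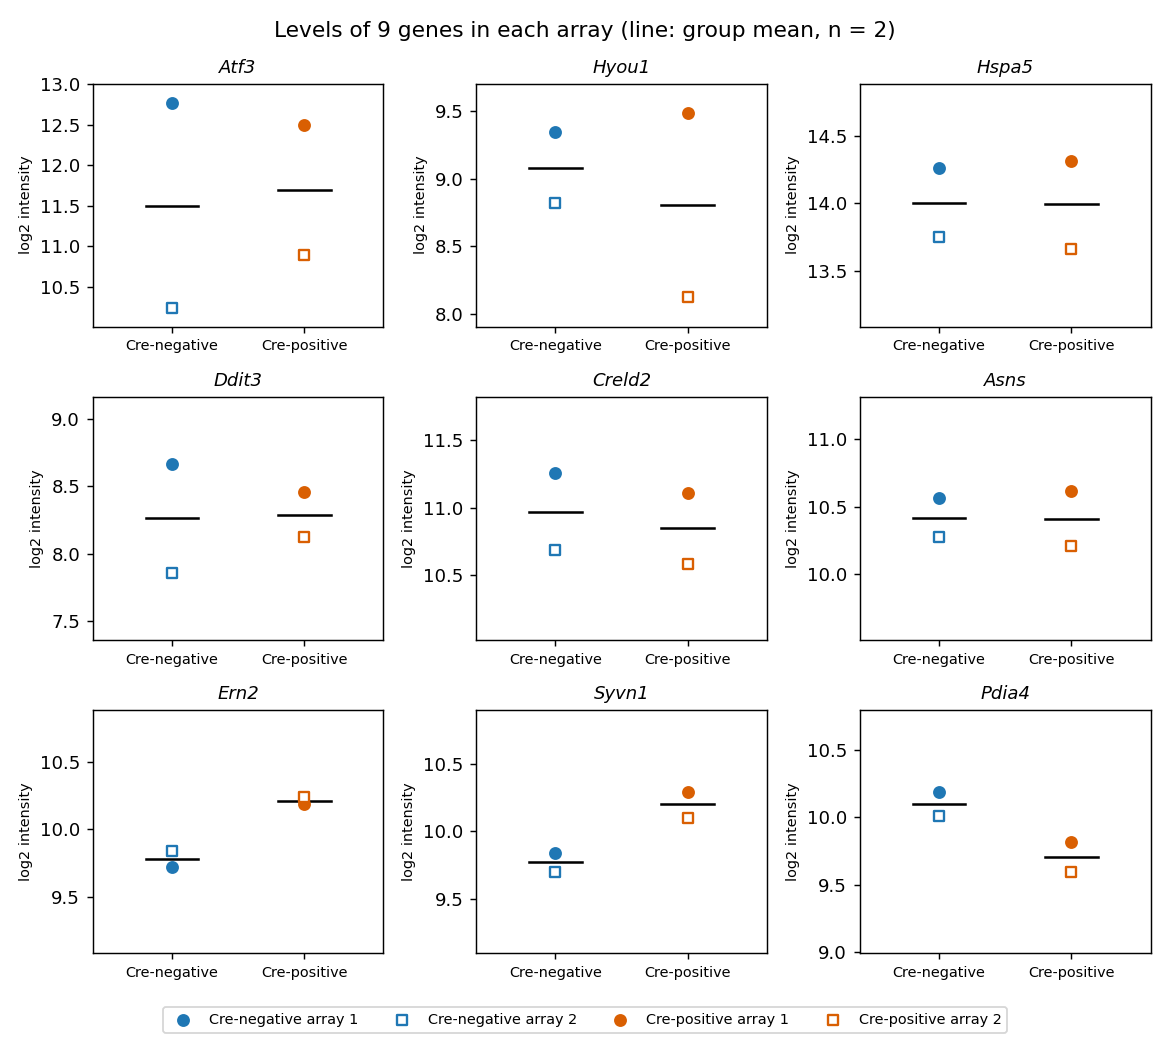
Log2 intensity of 9 genes in each array by genotype, with lines at the group means (n = 2) and axes of equal span except a wider one for Atf3. In Atf3, Hyou1, Hspa5, Ddit3, Creld2 and Asns 1 array of each genotype is high and 1 low, whereas Ern2, Syvn1 and Pdia4 separate by genotype.

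Probe sets of the same gene agreed in part. Of the 32 genes 12 rested on a single probe set above the filter. Of the other 20, 9 had all their probe sets in 1 direction, among them Syvn1, Eif2ak3 and Calr, and 11 had at least 1 going the other way. Taken over all 69 probe sets above the filter, 28 were higher and 41 lower in the Cre-positive group. Hsp90b1 is an example, with its brightest probe set at 0.09 and its other at -0.50. The probe sets can lie in different parts of a transcript, and those with s or x in their identifier can bind related transcripts.

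**Figure D4:**
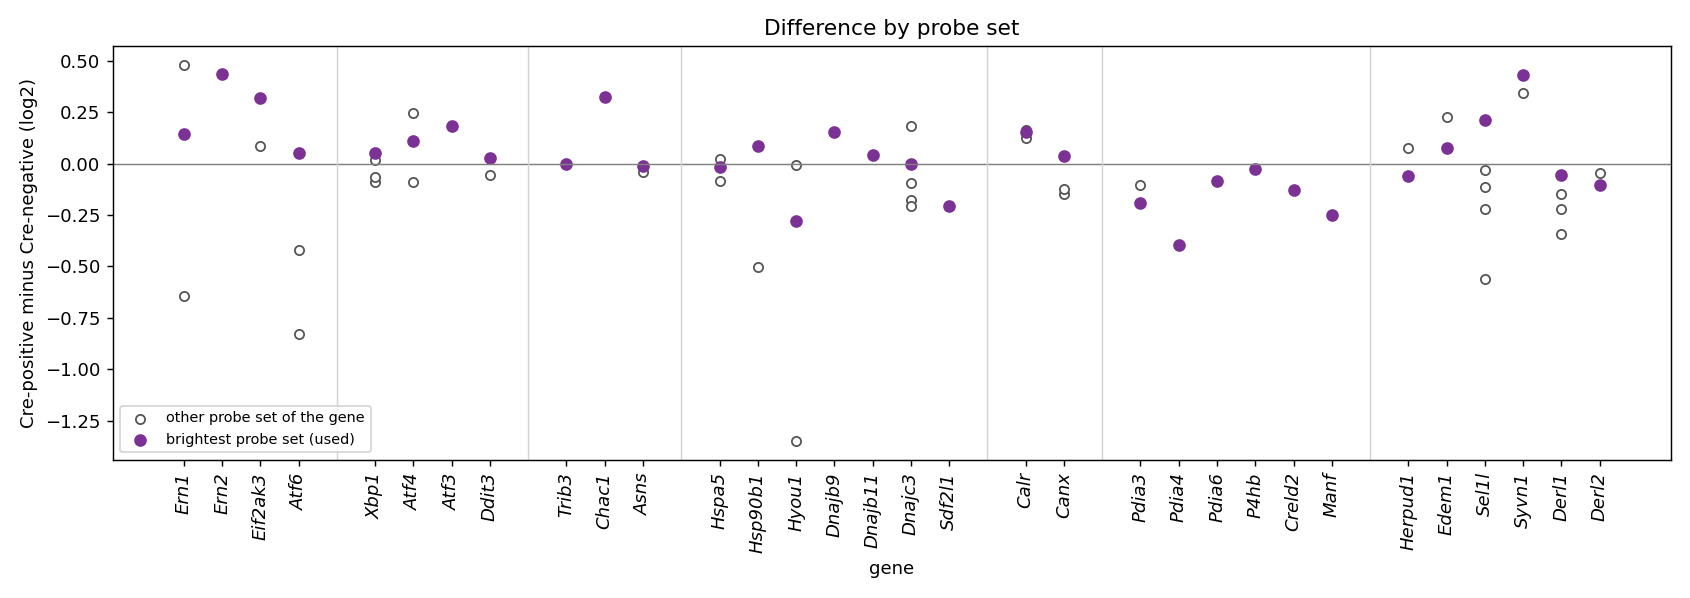
Difference between genotypes (log2) for each probe set above the filter, by gene. Filled points are the brightest probe sets, from which the values above were read, and open points are the others. Ern1, Atf6, Hyou1, Hsp90b1 and Sel1l have probe sets far apart.

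Genes that work beside this machinery were read from 6 further lists, in which limma called 0 of 158 tested genes after adjustment. In all, 60 of the 158 averaged higher in Cre-positive mice, with a median difference of -0.04, close to the -0.05 of all genes. At an unadjusted p under 0.05 was 1 of the 158, where 11.1% of all genes were. It was Srp72, a subunit of the signal recognition particle that brings nascent secretory proteins to the ER. It measured log2 10.98 and 11.13 in the Cre-negative and 10.52 and 10.59 in the Cre-positive arrays (difference -0.50, SE 0.10, limma adjusted p = 0.285). Of its list, translocation and N-glycosylation, 27 of 32 genes had a lower mean, with a median of -0.11, and in 10 of the 32 the groups did not overlap. Of all genes 61.5% had a lower mean and 34.7% were lower without overlap. The second count is near that share, which includes many dimmer genes and was not matched for brightness. Srprb, a subunit of the particle's receptor, differed by -0.52 and Spcs2, of the signal peptidase, by -0.39. Leaving out Cre-positive array 2 gave a median of -0.20, and leaving out Cre-positive array 1 gave -0.049.

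The remaining lists had medians between -0.06 and 0.03. Among further sensors and regulators 10 of 17 had a higher mean. Creb3l3 differed by 0.94 because of Cre-positive array 1 alone (log2 8.20, against 5.61 to 6.12 in the other arrays), and without that array its difference was -0.35. Creb3l4, a relative of ATF6, differed by -0.63, and Wfs1, an ER membrane protein, by 0.26. Among further ATF4 targets 12 of 28 were higher. The transfer RNA synthetase genes Sars and Wars differed by -0.24 and 0.58, with Wars high in Cre-positive array 1 (11.63, against 10.45 to 10.58), and Slc7a11 was close to floor level (2.79 to 2.93).

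Among further folding enzymes 10 of 28 were higher, with Cnpy2 at -0.32, the prolyl isomerase gene Fkbp11 at -0.34 and the dim Fkbp7 at -0.20. Fkbp11 is also on the list of plasma and B cell markers, of which 6 of 12 were at floor level on every array (Mzb1, Pou2af1, Tnfrsf17, Irf4, Cd79a and Cd79b). Of the other 6, 4 averaged higher in Cre-positive mice (Jchain, Sdc1, Prdm1 and Ighm), and Jchain and Prdm1 were highest in Cre-positive array 1. The summed intensity of the list was 7944 and 5513 in the Cre-negative and 10468 and 6274 in the Cre-positive arrays. Most of that sum came from Sdc1 alone (log2 12.31 to 13.31), so it says little about the other markers. The part of plasma and B cells in the Fkbp11 value was not tested. Among further degradation genes 11 of 23 were higher. Vcp, the ATPase that pulls proteins out of the ER membrane, measured log2 12.34 and 12.41 against 12.63 and 12.60 (difference 0.24, SE 0.08, limma adjusted p = 0.454). Edem3 differed by 0.36 and the ubiquitin-conjugating enzyme gene Ube2j1 by -0.47, both with groups that did not overlap. Among genes of ER to Golgi transport 12 of 30 were higher, with Sec24c at 0.23, Preb at 0.26 and Golt1b at -0.61, the last with overlapping groups.

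**Figure D5:**
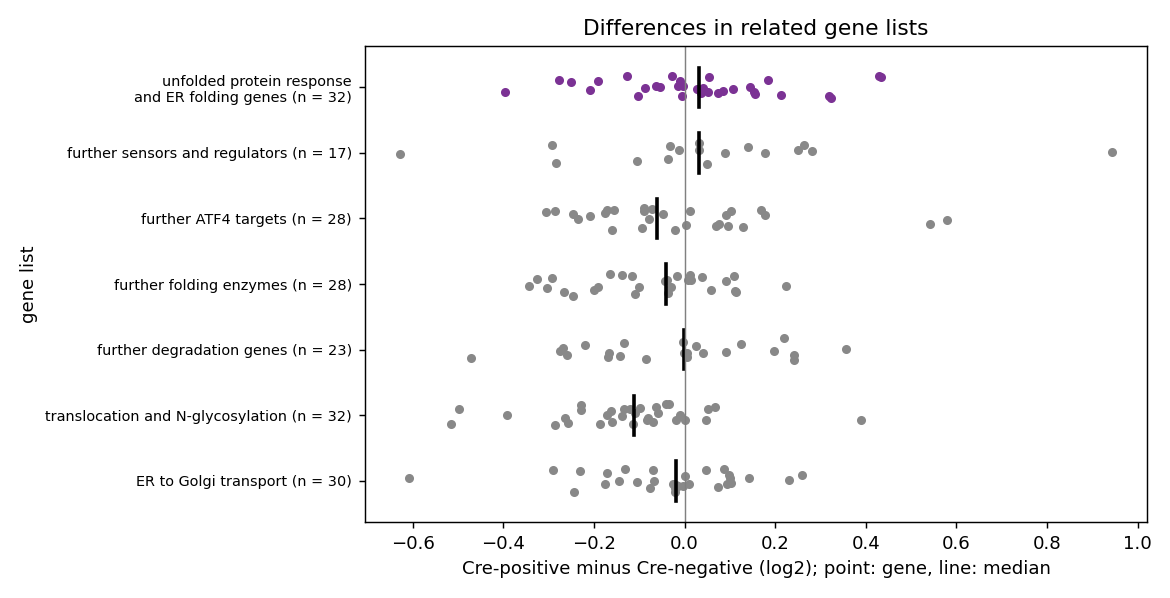
Difference between genotypes (log2) of each tested gene in the unfolded protein response and ER folding group (32 genes) and in 6 related lists, with lines at the medians. The medians lie between -0.11 (translocation and N-glycosylation) and 0.03.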

How the data were processed

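Total RNA of 4 colon epithelium samples was labelled by the Affymetrix protocol, per the labels. The deposited intensity values were made by the authors with GCRMA, per the submitters' processing notes, and are on the linear scale. The authors' other table gives these intensities rounded, with log2 values relative to the Cre-negative mean, a fold ratio and a p-value whose test is not given in the sources used here. These deposited log2 values matched the first table to within 0.000501.

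Of 45101 probe sets, 34945 name 1 gene, 932 several genes and 9160 are unnamed here, apart from 64 controls. Intensities were log2-transformed without a pseudocount. The brightest probe set per gene was kept if its mean exceeded the 40th percentile of all probe sets (log2 2.81), leaving 12659 genes. Genotypes were compared with limma 3.58.1 in R 4.3.3 (lmFit, eBayes with intensity trend, two-sided, Benjamini-Hochberg over all genes), with 2 residual degrees of freedom and 1.58 from the prior; the script was tested on simulated data. Alternatives changed the filter, probe set choice, scaling, pseudocount, variance model and replicate block, left out each array, or took the deposited p-values. The labels name separate biological replicates. The number of arrays limits the precision, and intervals are 95%, not corrected for the number of genes.

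The genes and lists were chosen with earlier results of these data known, so lists are described by counts and medians and not tested. Genes given in every array were the 2 of smallest p and the 1 of largest difference in each role group, and the sensors, Hspa5, Xbp1, Atf4 and Ddit3. From each related list the same 3 kinds are named. Other genes were named after their values were seen. Epithelium, goblet, neutrophil and plasma cell marker lists are given where they bear on a result. Macrophage, T and NK cell and fibroblast lists had medians of 0.42, 0.07 and -0.04.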

Additional observations from a re-analysis of the deposited data

How the results depend on the processing

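No gene of the response was called by limma after adjustment under the alternatives that kept every array. Of the 32, 10 kept their direction under all 13 alternatives. Not all of these could turn a direction. Changing the filter or the variance model, or adding the replicate block, leaves a gene's difference as it was. With every probe set, directions were again read from the brightest one. The number at an unadjusted p under 0.05 was 1 with the mean of all probe sets and 1 by the authors' deposited p-values, and ranged from 0 to 2 when 1 array was left out. The number with a higher mean was 11 with the mean of all probe sets and 28 of 69 when every probe set was counted. With 1 array left out the median difference of the 32 genes ranged from -0.045 to 0.17, of sensors from 0.22 to 0.30, of transcription factors from -0.22 to 0.36, of lectin chaperones from -0.016 to 0.21, of ATF4 and CHOP targets from 0.0012 to 0.19, of chaperones from -0.093 to 0.22, of disulfide isomerases from -0.27 to -0.069 and of degradation genes from -0.017 to 0.12. For the related lists it ranged from -0.023 to 0.079 (sensors and regulators), -0.084 to 0.025 (ATF4 targets), -0.13 to -0.051 (folding), -0.090 to 0.025 (degradation), -0.099 to 0.049 (ER to Golgi) and -0.20 to -0.049 (translocation). With the mean of all probe sets the sensor median was 0.026 and those of the further sensors, folding and degradation lists were -0.0029, -0.090 and -0.080, and with every probe set the sensor medians were 0.087 and (further sensors) -0.012.

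Directions turned, with causes not tested, with the mean of all probe sets for Ern1 (-0.014), Atf6 (-0.40), Xbp1 (-0.021), Ddit3 (-0.015), Hsp90b1 (-0.21), Canx (-0.077), Herpud1 (0.0060) and Sel1l (-0.14). With arrays centred on their medians they turned for Trib3 (0.019), Asns (0.011), Hspa5 (0.0074) and Dnajc3 (0.017), and after quantile normalization for Trib3 (0.033), Asns (0.015), Hspa5 (0.045) and Dnajc3 (0.024). Leaving out 1 array turned Asns (-0.21 to 0.19), Hspa5 (-0.34 to 0.31), Dnajc3 (-0.070 to 0.061), Creld2 (-0.42 to 0.16), Herpud1 (-0.19 to 0.069), Derl1 (-0.13 to 0.021), Derl2 (-0.26 to 0.054), Atf4 (-0.067 to 0.28), Atf3 (-1.08 to 1.45), Ddit3 (-0.38 to 0.43), Trib3 (-0.014 to 0.0080), Hsp90b1 (-0.093 to 0.26), Dnajb11 (-0.0082 to 0.091), Canx (-0.029 to 0.10), Ern1 (-0.020 to 0.31), Xbp1 (-0.050 to 0.16), Calr (-0.088 to 0.40), Edem1 (-0.033 to 0.18), Atf6 (-0.077 to 0.18), Hyou1 (-0.96 to 0.41), P4hb (-0.061 to 0.0070), Creb3l3 (-0.35 to 2.23) and Golt1b (-1.29 to 0.075). The replicate block gave 0 genes called and 3 at an unadjusted p under 0.05. Same-numbered arrays deviated together over all genes tested (r = 0.423 across genes, which are not independent), but the labels do not pair them.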
